A study of Homo sapiens with 6 samples.

Results

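The transcripts described here are those of 58 genes that govern the passage from G1 into S phase and copy the genome, and 57 of them had at least 1 probe set of their own among 11963 genes measured. The list was given by gene name, and every probe set that the platform's annotation assigned to these names was taken, 93 in all. Each gene is represented by its brightest probe set over all 6 arrays. The remaining gene, CDKN2C, was not analysed here. The genes fall into 7 roles: G1 cyclins and their kinases, CDK inhibitors, pocket proteins and E2F factors, origin licensing, origin firing, polymerases with their clamp and clamp loader, and nucleotide supply.

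Expression was measured on 6 oligonucleotide arrays. The 3 parental samples are NCI-H1975, a non-small cell lung cancer line of human origin with mutant EGFR that is sensitive to WZ4002, a kinase inhibitor of mutant EGFR. The 3 WZR6 samples come from clone 6 of the same line, isolated after culture in rising concentrations of WZ4002 and resistant to it. Both groups grew exponentially in RPMI with 5% serum, and the sources used here do not say whether the inhibitor was present at harvest. WZR6 is 1 clone, so a difference may belong to resistance or to that clone, and these cannot be told apart. Nothing in the labels says that the 3 samples of a group came from separate cultures, so the p-values measure the spread between these samples, which may be technical.

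In G1, D-type cyclins with CDK4 or CDK6 and then cyclin E with CDK2 phosphorylate the pocket protein RB1, which releases E2F transcription factors that drive genes of DNA replication. CDK inhibitors of the INK4 and CIP/KIP families oppose these kinases. The origin recognition complex (ORC) and CDC6 load the ring of MCM2 to MCM7 onto DNA in G1, and in S phase the kinase CDC7 with its activator DBF4 helps to turn that ring, with CDC45 and the GINS complex, into the working helicase. ERK signaling downstream of EGFR is a known driver of G1 progression in lung cancer cells.

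E2F factors bind sites of the form TTTCGCGC or TTTGGCGC, and such sites are common near the starts of replication genes. Promoter windows from 250 bases before to 50 bases after the transcription start were found in RefSeq (GRCh38.p14) for 51 of the 58 genes, and both motifs were searched on both strands. Either motif was present in 14 of the 51 genes (27.5%), against 1.15% of all 35116 windows of that length and 1.40% of 27305 genes with a window. By outcome, the motif was present in 4 of 20 genes called lower in WZR6, 3 of 14 called higher and 7 of 16 not called; the remaining window is that of CDKN2C. The windows of 7 genes are shown because all carry at least 1 of these motifs while 4 of the genes were lower in WZR6 (MCM2, MCM6, MCM7 and CDC6), 2 were higher (GINS1 and POLA1) and 1 was not called (MCM3). Each runs 5′ to 3′ on the gene's strand (GCGCCAAA is TTTGGCGC read on the opposite strand) from 160 bases before the start to 20 bases into the transcript, with the motif matches in capitals.
MCM2, chr3:127598251-127598430, plus strand: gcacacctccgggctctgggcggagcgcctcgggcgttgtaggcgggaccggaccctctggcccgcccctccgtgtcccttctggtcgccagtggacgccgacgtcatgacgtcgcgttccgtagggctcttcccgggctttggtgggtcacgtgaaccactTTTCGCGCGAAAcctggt
MCM6, chr2:135876424-135876603, minus strand: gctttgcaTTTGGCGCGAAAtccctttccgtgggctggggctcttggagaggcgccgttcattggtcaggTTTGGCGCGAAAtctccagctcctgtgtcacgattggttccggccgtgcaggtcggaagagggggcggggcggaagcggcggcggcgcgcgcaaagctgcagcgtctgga
MCM7, chr7:100101378-100101557, minus strand: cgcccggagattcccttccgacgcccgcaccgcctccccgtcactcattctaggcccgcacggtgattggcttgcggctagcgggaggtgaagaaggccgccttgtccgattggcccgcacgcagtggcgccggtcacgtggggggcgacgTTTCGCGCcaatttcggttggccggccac
CDC6, chr17:40287719-40287898, plus strand: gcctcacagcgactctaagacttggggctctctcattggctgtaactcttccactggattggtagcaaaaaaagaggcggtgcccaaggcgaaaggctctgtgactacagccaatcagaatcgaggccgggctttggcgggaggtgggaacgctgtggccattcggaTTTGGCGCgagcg
GINS1, chr20:25407513-25407692, plus strand: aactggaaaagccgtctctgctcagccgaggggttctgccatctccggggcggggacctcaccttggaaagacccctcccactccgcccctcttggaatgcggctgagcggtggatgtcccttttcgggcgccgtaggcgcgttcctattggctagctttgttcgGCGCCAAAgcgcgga
POLA1, chrX:24693758-24693937, plus strand: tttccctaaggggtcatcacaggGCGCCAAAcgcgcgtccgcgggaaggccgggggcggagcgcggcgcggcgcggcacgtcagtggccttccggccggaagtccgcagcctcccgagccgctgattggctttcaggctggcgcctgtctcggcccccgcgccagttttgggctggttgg
MCM3, chr6:52284723-52284902, minus strand: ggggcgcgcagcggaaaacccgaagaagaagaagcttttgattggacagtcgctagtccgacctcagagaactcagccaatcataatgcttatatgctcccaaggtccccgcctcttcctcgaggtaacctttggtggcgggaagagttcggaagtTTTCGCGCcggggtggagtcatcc
MCM2, MCM7 and MCM3 hold only TTTCGCGC, CDC6, GINS1 and POLA1 only TTTGGCGC, and MCM6 both. In MCM2, matches to TTTCGCGC on either strand overlap, and in MCM6 a match to TTTGGCGC overlaps one to TTTCGCGC on the opposite strand at each of its sites. A match of letters is a description and was not tested as a binding site.

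Across the 57 measured genes, 25 fell in WZR6, 15 rose and 17 were not called by limma at an adjusted p under 0.05. The share that fell was 43.9%, against 23.5% of all genes, and the share that rose was 26.3%, against 24.5% of all genes. Most of these genes are bright on the array, and 67.5% of genes above the median level were called, against 48.0% of all genes. The median level is 7.38, the median of log2 intensities over the whole table, and 6916 of the 11963 genes lie above it. Among the 52 members above the median level, 25 fell (48.1%) and 14 rose (26.9%), against 32.3% and 35.3% of all 6916 such genes. Differences were moderate: the median over the members was -0.07 on the log2 scale, against 0.02 for all genes, and the median size was 0.33, against 0.18. Among genes above the median level the median size was 0.34 for members and 0.27 for all genes. Called decreases of at least 0.5 were seen in 11 members, or 19.3%, against 9.98% of all genes, and called increases of that size in 4, or 7.02%, against 7.41%. Above the median level, such decreases made up 21.2% of members and 12.3% of all genes, and such increases 5.77% and 10.8%. A called difference of at least 2-fold was found for 2 members, E2F5 and CDKN2D, against 4.78% of all genes. The groups did not overlap for 44 members, or 77.2%, against 56.3% of all genes. At the matched level the shares were close, at 80.8% of the 52 bright members and 77.3% of all genes above the median level. In bulk RNA a change in the share of cells in a given phase and a change of transcript per cell cannot be told apart.

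**Figure D1:**
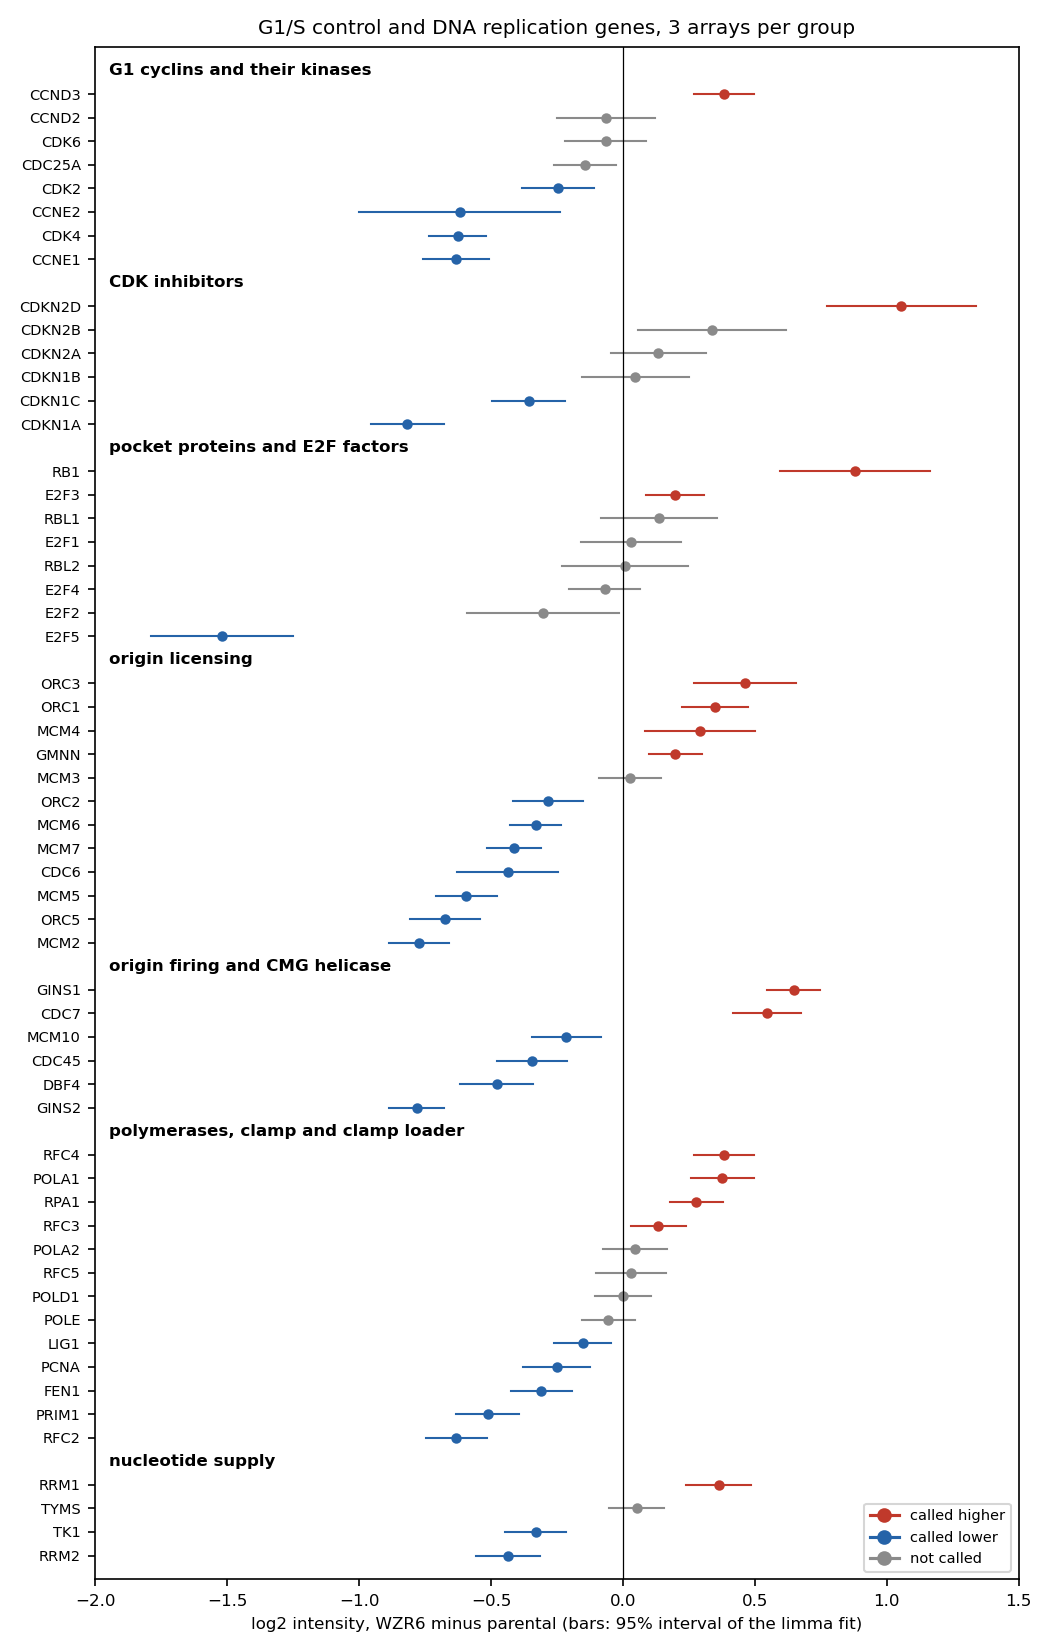
Difference in log2 intensity, WZR6 minus parental, on the horizontal axis for each of the 57 measured genes, grouped by role, with points for the estimate, bars for the 95% interval of the limma fit and colour for the call. Every role holds both blue (lower) and red (higher) points, and E2F5 at -1.52 and CDKN2D at 1.05 mark the ends of the range.

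Among G1 cyclins and their kinases, 4 of 8 fell, 1 rose and 3 were not called. Their 62.5% called stands beside 48.0% of all genes and 67.5% of genes above the median level. CCNE1, which encodes cyclin E1, had log2 intensities of 9.31, 9.41 and 9.26 in parental cells and 8.67, 8.73 and 8.68 in WZR6, a 1.55-fold decrease (95% interval 1.42 to 1.69, adjusted p = 8.54e-05 in limma). CDK4, the kinase of the D cyclins, measured 12.28, 12.18 and 12.23 in parental cells and 11.59, 11.61 and 11.61 in WZR6. It was 1.54-fold lower (1.43 to 1.66, adjusted p = 4.59e-05 in limma). All 3 WZR6 arrays lay below all 3 parental arrays for both genes, and the spread within WZR6 was small. CCNE2, the other cyclin E, was more variable, with 8.90, 8.54 and 9.19 in parental cells and 8.33, 8.11 and 8.34 in WZR6. Its 1.54-fold decrease (adjusted p = 0.0167 in limma) was not called without parental replicate 1 or without WZR6 replicate 2, where the adjusted p was 0.0517 and 0.0548. CDK2, the partner of cyclin E, fell by 0.25 ± 0.06 (SE), a call that ended when its 3 probe sets were averaged.

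CCND3, a D-type cyclin, moved the other way from its kinase CDK4. It measured 9.72, 9.74 and 9.64 in parental cells and 10.11, 10.10 and 10.03 in WZR6, a 1.30-fold increase (1.20 to 1.41, adjusted p = 5.76e-04 in limma). CDK6 differed by -0.07 ± 0.06 (SE), with group means of 6.81 and 6.74. CDC25A, the phosphatase that activates CDK2, differed by -0.14 ± 0.05 (adjusted p = 0.0507 in limma), and it was called lower in 6 of 16 alternatives. CCND2 was dim in both groups, with means of 4.64 and 4.58, under the lower quartile (5.27) of log2 intensities over the whole table, so that no difference could be read from it.

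CDK inhibitors were called higher for 1 of 6 measured genes, lower for 2 and not called for 3. The called share of 50% was close to the 48.0% of all genes. It was below the 67.5% of genes above the median level, where 4 of the 6 lie. CDKN1A, which encodes p21, fell from 9.97, 10.01 and 9.98 in parental cells to 9.06, 9.25 and 9.21 in WZR6. The decrease was 1.76-fold (1.60 to 1.94, adjusted p = 4.75e-05 in limma). CDKN1C, which encodes p57, fell 1.28-fold (1.16 to 1.41), from 9.17, 9.32 and 9.35 to 8.90, 8.92 and 8.95, and 4 of its 5 probe sets were called lower. The third member of that family, CDKN1B (p27), differed by 0.05 ± 0.08 (SE, 95% interval -0.16 to 0.25).

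CDKN2D, the INK4 inhibitor p19, showed the largest increase of all members. It measured 6.73, 6.41 and 6.30 in parental cells and 7.55, 7.65 and 7.40 in WZR6, a 2.08-fold difference (1.71 to 2.53, adjusted p = 3.61e-04 in limma). That increase rests on 1 probe set of the type _s_at, because its other probe set, near background at a mean below the lower quartile, differed by -0.09. The p16 gene CDKN2A differed by 0.13 ± 0.08 (SE) on its brightest probe set, and another of its 3 probe sets was called higher at 0.18. CDKN2B, which encodes p15, had means of 4.64 and 4.97, both below the lower quartile, with a difference of 0.34 ± 0.12 (adjusted p = 0.0508 in limma). It was called higher in 7 of 13 alternatives, among them without WZR6 replicate 3, which would make 2 inhibitors higher.

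Among pocket proteins and E2F factors, E2F5 and RB1 changed strongly and in opposite directions, E2F3 rose slightly, and 5 of 8 were not called. The called share was 37.5%, against 48.0% of all genes and 67.5% of genes above the median level. E2F5, a repressor-type E2F that works with the pocket proteins, fell from 8.95, 8.90 and 9.14 in parental cells to 7.39, 7.33 and 7.71 in WZR6. This 2.87-fold decrease (2.38 to 3.46, adjusted p = 5.55e-05 in limma) was the largest change of any member. The other E2F5 probe set lay near background and differed by -0.04. RB1, the retinoblastoma protein gene, rose from 7.89, 7.90 and 8.06 to 8.81, 8.60 and 9.07, or 1.84-fold (1.51 to 2.24; limma adjusted p = 8.44e-04). Its second probe set was also near background and was not called. E2F3, an activating E2F, measured 9.96, 10.00 and 9.91 in parental cells and 10.11, 10.17 and 10.18 in WZR6, and both its probe sets rose, by 0.20 and 0.50.

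The other 5 genes of this group were not called. E2F1, the best known activating E2F, differed by 0.03 ± 0.08 (SE, 95% interval -0.16 to 0.22), and E2F4 by -0.07 ± 0.06. The pocket proteins RBL1 (p107) and RBL2 (p130) differed by 0.14 ± 0.09 and 0.01 ± 0.10. The second RBL2 probe set differed by 0.33 and was not called, but RBL2 was called higher, at 0.17, when its probe sets were averaged (adjusted p = 0.0182 in limma). E2F2 had a WZR6 mean of 5.09, below the lower quartile, and differed by -0.30 ± 0.12 (adjusted p = 0.0799 in limma). It was called lower with cyclic loess, without parental replicate 3 and without WZR6 replicate 2, each of which would make 2 genes of this group lower.

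**Figure D2:**
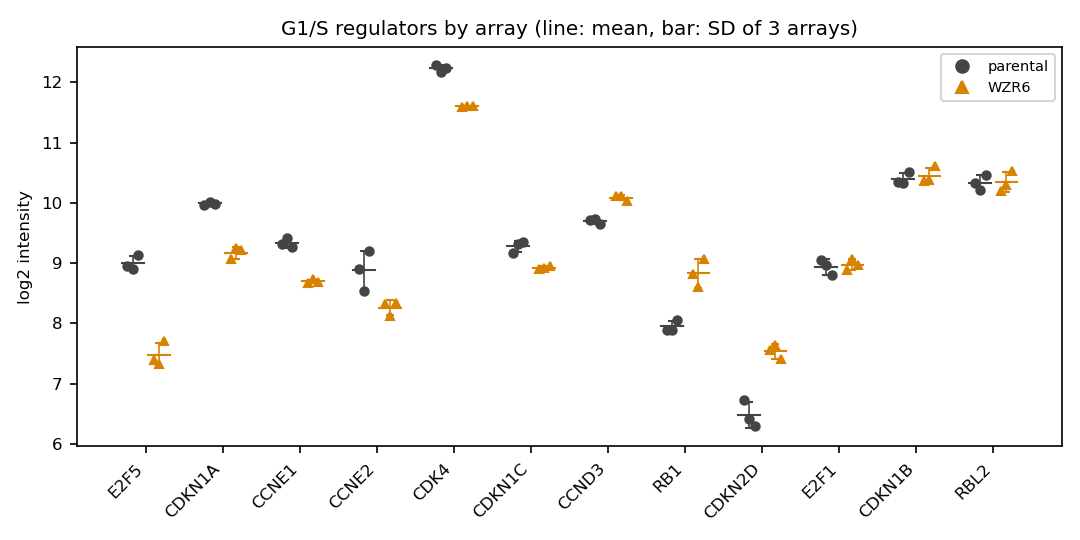
Log2 intensity on the vertical axis for 12 G1/S regulators in the 3 parental (circles) and 3 WZR6 (triangles) arrays, with lines for the mean and bars for the SD. The groups separate for the first 9 genes, from E2F5 to CDKN2D, and overlap for E2F1, CDKN1B and RBL2; levels of different genes are not comparable, since each has its own probes.

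Of 12 origin licensing genes, 7 fell, 4 rose and MCM3 was not called. All 12 lie above the median level, ORC1 only just, with group means of 7.22 and 7.57. Their 91.7% called stands beside 67.5% of all genes above that level. MCM2, a subunit of the MCM ring, had log2 intensities of 10.91, 10.95 and 10.87 in parental cells and 10.20, 10.11 and 10.11 in WZR6, and fell 1.71-fold (1.58 to 1.85, adjusted p = 2.56e-05 in limma). MCM5 fell 1.51-fold (1.39 to 1.64), from 9.69, 9.66 and 9.78 to 9.15, 9.09 and 9.11. MCM7 and MCM6 fell by 0.41 ± 0.04 and 0.33 ± 0.04 (SE). The second probe sets of MCM5 and MCM7 fell as well, by 0.46 and 0.34 on the log2 scale. MCM3 differed by 0.03 ± 0.05 (95% interval -0.09 to 0.14), an interval that holds none of the values of those 4 subunits. MCM4 measured 10.96, 10.99 and 11.27 in parental cells and 11.35, 11.35 and 11.40 in WZR6. It rose by 0.29 ± 0.09 (adjusted p = 0.0298 in limma), with 3 of its 4 probe sets called higher, but its call ended without any of 5 of the 6 arrays, parental replicate 3 being the exception (adjusted p at most 0.0922). The 6 subunits of the ring, which assemble in equal numbers, were thus called in both directions.

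The loaders of that ring were called in both directions too. ORC5, a subunit of the origin recognition complex, fell from 10.22, 10.35 and 10.28 to 9.68, 9.59 and 9.55, or 1.60-fold (1.46 to 1.75, adjusted p = 8.37e-05 in limma), with 2 of 3 probe sets called. ORC3 rose from 9.28, 9.49 and 9.34 to 9.90, 9.90 and 9.70, or 1.38-fold (1.20 to 1.58, adjusted p = 0.00297 in limma). ORC1, the subunit whose level follows the cell cycle, rose by 0.35 ± 0.05 (SE), and ORC2 fell by 0.28 ± 0.06. CDC6, the loading factor, fell by 0.44 ± 0.08, with its second probe set at -0.59. GMNN, which encodes geminin, an inhibitor of licensing, rose by 0.20 ± 0.04.

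All 6 genes of origin firing were called, 4 lower and 2 higher. Each of the 6 lies above the median level, where 67.5% of all genes were called. Subunits of the GINS complex, which joins the MCM ring in the active helicase, went in opposite directions. GINS2 fell from 10.21, 10.19 and 10.17 in parental cells to 9.46, 9.39 and 9.37 in WZR6, or 1.72-fold (1.60 to 1.85, adjusted p = 1.68e-05 in limma). GINS1 rose from 10.76, 10.73 and 10.71 to 11.42, 11.36 and 11.36, or 1.57-fold (1.46 to 1.68, adjusted p = 3.15e-05 in limma). For both, replicates lay within 0.1 of each other and the groups were far apart. The kinase CDC7 rose from 8.84, 8.92 and 9.00 to 9.42, 9.49 and 9.48, or 1.46-fold, while its activator DBF4 fell from 11.28, 11.24 and 11.39 to 10.85, 10.76 and 10.87, or 1.39-fold. CDC45, a helicase cofactor, fell by 0.34 ± 0.06 (SE) and the firing factor MCM10 by 0.21 ± 0.06, the latter with no call without WZR6 replicate 3 (adjusted p = 0.0548 in limma).

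For 7 pairs of partners the log2 ratio was also taken within each array. The pairs were chosen because 1 partner was called higher and the other lower, so the ratios are a description with no test. The ratio of GINS1 to GINS2 was 2.69-fold higher in WZR6, with an SD of 0.01 log2 in each group. The ratio of ORC3 to ORC5 was 2.20-fold higher, that of MCM4 to MCM2 2.09-fold, that of CDC7 to DBF4 2.04-fold and that of RFC4 to RFC2 2.02-fold. POLA1 to PRIM1 and RRM1 to RRM2 followed at 1.85-fold and 1.74-fold. The spread was widest in parental arrays for MCM4 to MCM2 (SD 0.21 log2) and RRM1 to RRM2 (SD 0.14 log2).

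**Figure D3:**
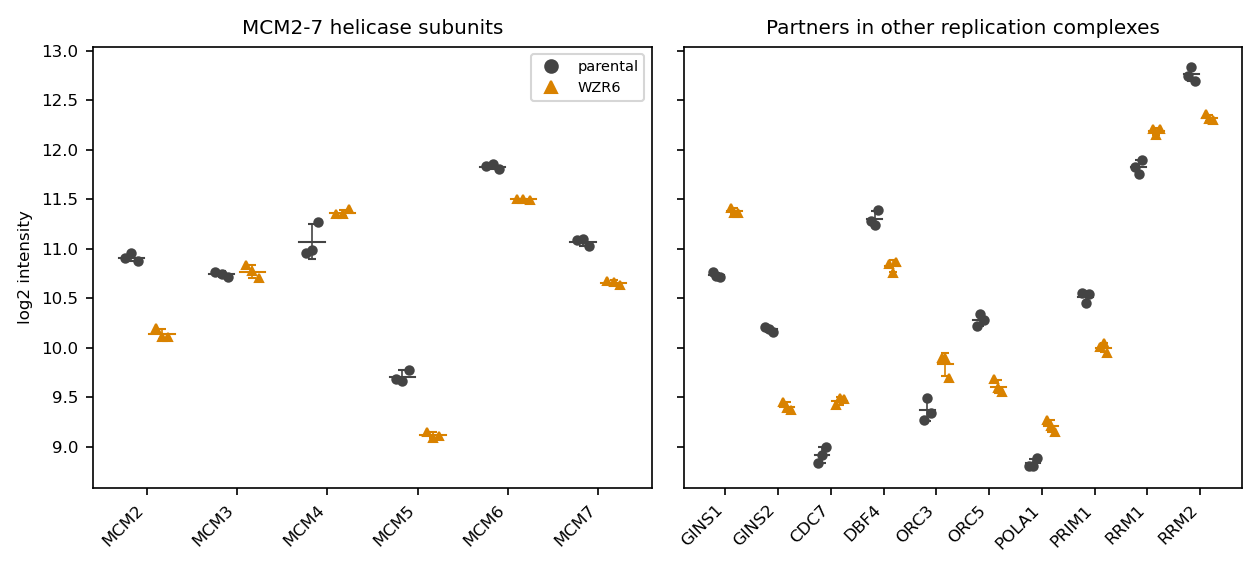
Log2 intensity on the vertical axis for the 6 MCM ring subunits (left) and for pairs of partners in other replication complexes (right), with circles for parental and triangles for WZR6 arrays, lines for means and bars for the SD of 3 arrays. MCM2, MCM5, MCM6 and MCM7 were lower in WZR6, MCM3 overlapped and MCM4 was slightly higher, while GINS1 and GINS2 moved apart.

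Polymerases, the clamp and its loader gave 5 lower, 4 higher and 4 not called of 13. All 13 lie above the median level, and their 69.2% called was close to the 67.5% of all such genes. Within the clamp loader, RFC2 fell from 10.70, 10.75 and 10.62 to 10.07, 10.05 and 10.06, or 1.55-fold (1.43 to 1.68; limma adjusted p = 5.88e-05), and its second probe set differed by -0.66. RFC4 rose from 11.49, 11.54 and 11.48 to 11.93, 11.91 and 11.83, or 1.30-fold (1.21 to 1.41). RFC5 differed by 0.03 ± 0.06 (SE). RFC3 rose by 0.13 ± 0.04, a call that ended in 8 of 16 alternatives, among them cyclic loess (adjusted p = 0.115 in limma) and without any 1 array but parental replicate 2. The clamp itself, PCNA, fell by 0.25 ± 0.05.

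The enzymes that start strands were also split. POLA1, the catalytic subunit of polymerase alpha, rose from 8.80, 8.81 and 8.89 to 9.27, 9.21 and 9.15, or 1.30-fold (1.19 to 1.41, adjusted p = 7.99e-04 in limma). PRIM1, the primase subunit that works with it, fell from 10.56, 10.45 and 10.54 to 10.01, 10.04 and 9.95, or 1.43-fold (1.31 to 1.55, adjusted p = 1.84e-04 in limma). The accessory subunit POLA2 differed by 0.05 ± 0.05 (SE). POLD1 and POLE, the catalytic subunits of polymerases delta and epsilon, differed by 0.00 ± 0.04 and -0.06 ± 0.04, with 95% intervals of -0.11 to 0.10 and -0.16 to 0.04. RPA1, which coats single-stranded DNA, rose by 0.28 ± 0.04, and FEN1, which removes the flaps of Okazaki fragments, fell by 0.31 ± 0.05. LIG1, which seals those fragments, fell by 0.15 ± 0.05, a call that ended without any of 5 of the 6 arrays, WZR6 replicate 2 being the exception (adjusted p at most 0.0988), and with median centring (0.0835).

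Genes of nucleotide supply were also called in both directions, with 2 of 4 lower, 1 higher and 1 not called. All 4 lie above the median level, and their 75% called stands beside 67.5% of all such genes. RRM2, the small subunit of ribonucleotide reductase, fell from 12.75, 12.84 and 12.70 to 12.36, 12.31 and 12.30, or 1.35-fold (1.24 to 1.47, adjusted p = 4.28e-04 in limma). Its second probe set fell further, by 0.92 on the log2 scale. The large subunit RRM1 rose from 11.82, 11.76 and 11.90 to 12.21, 12.15 and 12.21, or 1.29-fold (1.18 to 1.40, adjusted p = 0.00109 in limma). TK1, the S phase thymidine kinase, fell from 9.88, 9.90 and 9.99 to 9.63, 9.58 and 9.56. TYMS, thymidylate synthase, differed by 0.05 ± 0.04 (SE), and its 2 probe sets gave no call.

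More than 1 probe set of their own was present for 26 members, and none of these had probe sets called in opposite directions. Over the 93 probe sets of all measured members, 57 were called (61.3%, against 41.1% of all probe sets). Of these, 36 were lower (19.5% of all probe sets were) and 21 higher (21.6%). Of the 57 members, 25 were represented by a probe set of the types _x_at or _s_at, which can detect several transcripts. Without such probe sets 39 members could be tested, of which 15 fell and 10 rose.

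Each member was also set beside up to 40 neighbouring genes, 20 on each side in the RefSeq order of GRCh38.p14. The neighbours of RFC2 and MCM7 had median differences of -0.37 and -0.32, and those of ORC5, DBF4 and MCM2 -0.28, -0.26 and -0.22. CDK6 lay among neighbours with a median of -0.38 and itself differed by -0.07. At the other end, the neighbours of CDC7 had a median of 0.42, those of CDKN2D 0.34, those of ORC1 0.32 and those of E2F2 0.31. CDC7 and ORC1 differed from their neighbours' medians by 0.12 and 0.03, and CDKN2D by 0.72. A neighbour median at or below -0.3 was found for 3 members, of which 2 fell, and at or above 0.3 for 4, of which 3 rose. Of all placed genes, 4.03% and 3.11% had such neighbours. The other 50 of the 57 members held 23 of the 25 decreases and 12 of the 15 increases. These 50 include ORC5 and DBF4, for which 26 and 21 of 40 neighbours were called lower. DBF4 and CDK6 are among each other's neighbours. CDKN1A and MCM5 fell although their neighbours had medians of 0.17 and 0.11, and the neighbours of E2F5, CCNE1, CDK4, GINS2 and RB1 had medians between -0.14 and 0.10. The part of the neighbourhood in these differences was not tested.

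**Figure D4:**
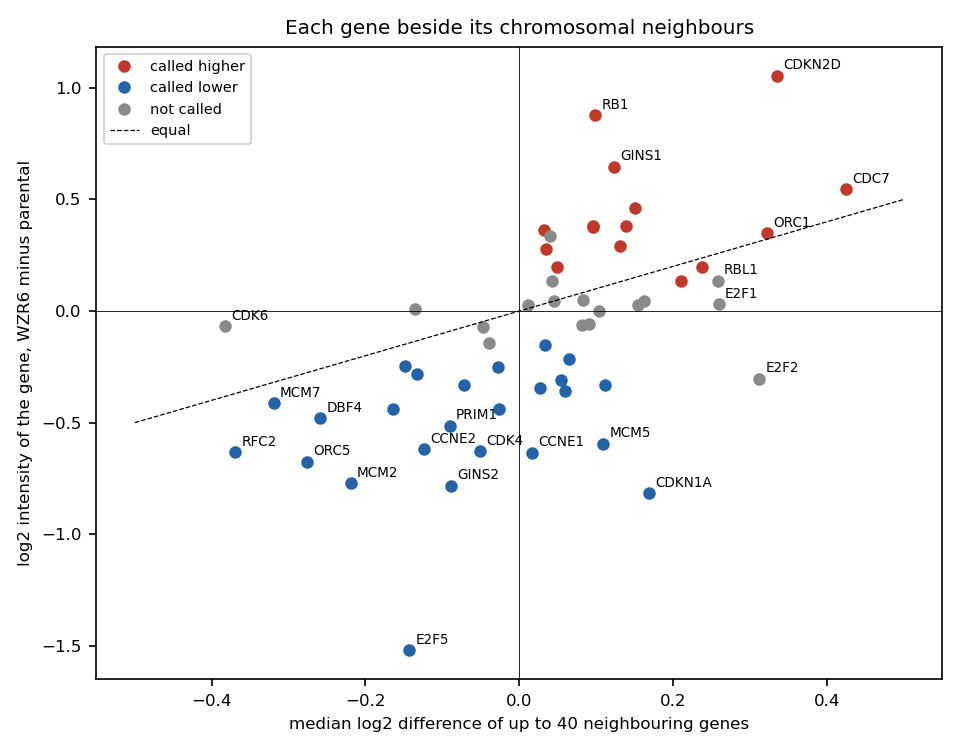
Log2 difference of each of the 57 genes (vertical axis) against the median log2 difference of its up to 40 neighbouring genes (horizontal axis), with colour for the call and a dashed line where both are equal. CDC7 and ORC1 lie close to the line, while E2F5, CDKN1A, RB1 and GINS2 lie far from it.

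Other genes of replication and G1/S control were summarised from a list of 54, of which 48 were measured. Of these, 22 fell (45.8%), 9 rose (18.8%) and 17 were not called. Their median difference was -0.15. Of the 48, 46 lie above the median level, where 32.3% of all genes fell and 35.3% rose. POLD4, a small subunit of polymerase delta, fell 2.94-fold (2.62 to 3.30) and E2F8, an atypical repressor E2F, 2.00-fold (1.74 to 2.30). RPA2, a partner of RPA1, rose 1.77-fold (1.64 to 1.92), while RPA3, another partner, fell 1.72-fold (1.60 to 1.84). SKP2, which targets p27 for degradation, rose 1.74-fold (1.54 to 1.96). In limma, POLD4, E2F8, RPA2, RPA3 and SKP2 each had an adjusted p of 1.36e-04 or less.

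Genes of mitosis, a later stage of the cycle, rose more often than they fell. Of 43 measured, 21 rose (48.8%), 7 fell (16.3%) and 15 were not called, with a median difference of 0.17. Of these 43, 42 lie above the median level, where 35.3% of all genes rose and 32.3% fell. The count of decreases among mitosis genes was not stable. It was 3 without WZR6 replicate 2 and 4 without parental replicate 2, parental replicate 3 or WZR6 replicate 1. CDC20, an activator of the anaphase-promoting complex, rose 2.02-fold (1.87 to 2.18), and the kinesins KIF2C and KIF20A rose 1.80-fold and 1.59-fold. SMC2, a condensin subunit, rose 1.54-fold. The difference between the mitosis and replication lists was described by these counts and was not tested.

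Targets of p53 were listed because CDKN1A is one of them. Of 16 measured, 6 fell, 6 rose and 4 were not called, with a median of -0.07. The shares, 37.5% lower and 37.5% higher, were near the 32.3% and 35.3% of all genes above the median level, where 13 of the 16 lie. TP53I3 and GDF15 fell 4.16-fold and 2.85-fold, as CDKN1A did by 1.76-fold, while GADD45A, a growth arrest gene, and the death receptor gene TNFRSF10B rose 2.03-fold and 1.70-fold.

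**Figure D5:**
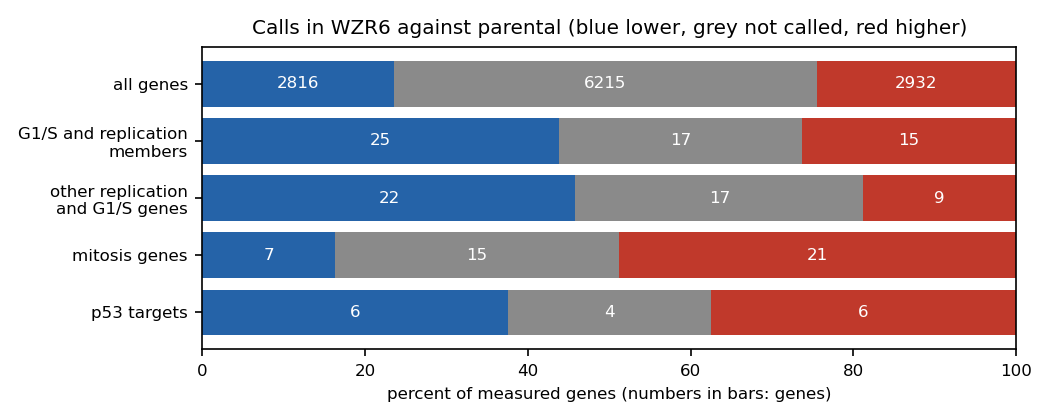
Share of measured genes in percent (horizontal axis) that were called lower (blue), not called (grey) or called higher (red) in WZR6, for all genes and 4 lists, with the number of genes printed in each bar. Decreases make up the larger share of calls in both replication lists, with 25 and 22 genes, and increases in mitosis genes, with 21.

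Across the arrays, log2 intensities correlated over 22215 probe sets with r of 0.9978 to 0.9983 within a group and 0.9815 to 0.9826 between groups, so that no array stood apart. The epithelial keratins KRT8 and KRT18 were bright in both groups, with means of 12.08 to 14.14, while EPCAM and CDH1 were 76.8-fold and 51.7-fold lower in WZR6. Of the 5 epithelial markers, which also include the keratin KRT19, 4 were called lower, 3 of them by at least 2-fold. Besides EPCAM and CDH1, a keratin was among these 3. KRT18 differed least of the 5, by -0.12, and their median difference was -1.71. Of 5 leukocyte markers on the array, 3 fell (ITGB2, CD14 and LCP1), and their summed intensity was 631 to 685 in parental and 347 to 372 in WZR6 arrays. The leukocyte-defining PTPRC lay below the lower quartile in both groups. Of 7 fibroblast and endothelial markers 2 rose (CDH5 and PDGFRB), with sums of 399.9 to 445 and 489.7 to 516. Both sums were small beside those of the 5 epithelial markers, which were 39855 to 40100 in parental and 22866 to 23623 in WZR6 arrays. The part of these markers in the results above was not tested.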

How the data were processed

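The authors made the deposited linear intensity of each probe set in each array with RMA (background correction, quantile normalization and a summary of probes), per the submitters' processing notes; the sources used here state neither its version nor its settings. Values lay between 9.87 and 44567, with no detection calls. Their log2 was taken with no pseudocount and no further normalization. Of the probe sets, 62 controls were left out and 22215 kept; 19064 had 1 annotated gene, 1043 several and 2108 none. A gene was named only from a probe set with 1 gene, and 19052 were matched by Entrez identifier to RefSeq (GRCh38.p14).

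Sample titles gave the groups. The comparison of WZR6 with parental cells was fitted over all 11963 genes with limma 3.58.1 (lmFit and eBayes, two-sided) in R 4.3.3, with Benjamini-Hochberg adjustment over all genes and calls at an adjusted p under 0.05. Intervals have 95% confidence. The fit was tested on simulated data. With 3 arrays per group, the number of arrays limits the precision. All measured members may be named, with values in every array for up to 4 called members of largest difference per role. MCM4, which is not among those 4 in origin licensing, was shown by array as well. From each other list up to 4 called genes of largest difference are named, and RPA3 was added to them. The members and lists were chosen with earlier results of these data known. Other alternatives were scaling, filters and a floor on dim values, the variance model, the replicate block, the choice of probe set and leaving out each array. Neighbours and motifs were computed in Python 3.11.15.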

Additional observations from a re-analysis of the deposited data

How the results depend on the processing

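Over 16 alternatives the number of members called lower stayed between 23 and 27 of those tested, except for 15 of 39 without _x_at and _s_at probe sets, where fewer members were tested, and the number called higher ran from 10 to 18. Leaving out each array in turn gave 23 to 25 lower and 13 to 14 higher. Of 40 called members, 33 kept their call and direction in every alternative that held them. CDKN2D reversed to -0.090 without _x_at and _s_at probe sets, where a probe set near background stood for it. CCNE2 also lost its call with a floor at the lower quartile, as did MCM4. Scaling left the members' counts at 15 to 16 higher and 24 to 27 lower. With the replicate number as a block, 15 members were higher and 25 lower, with CDKN2B gaining and RFC3 losing its call; deviations of same-numbered arrays correlated at 0.01, 0.09 and 0.23, so the numbers were not taken to pair the samples, and 2 of 3 parental arrays did not correlate best with their own number. CCND2 and CDKN2B were dim in both groups, and signal over background limits what can be read from them.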
